A study of Rattus norvegicus with 3 samples.

Results

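Among the regions of the rat genome that HILS1 occupied in spermatids, 304 of 32731 had their centre in a LINE-1 element of an older kind, which was 0.929% of the list (95% Wilson interval 0.830 to 1.04). They were chosen by the repeat name at the centre of the peak: every LINE-1 peak was taken unless its name began with Lx or was one of the rat names L1_Rn, L1_Rn2, L1_Rat1 to L1_Rat4 and RNHAL1. The list has 25398 LINE-1 peaks in all, of which 24377 were in rat-named elements and 717 in the Lx family, and 7333 peaks were in no LINE-1 element. No measured value took part in this choice. The list gives no divergence or age of a copy, so that "older" rests on the names alone and could not be checked.

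HILS1 chromatin was immunoprecipitated in 2 replicates, with 1 input library as the control, from elongating and condensing spermatids of rats aged 50 to 60 days. No treatment or mutant was part of the series, and the chromatin came from testis nuclei, so the purity of the cells cannot be judged from a peak list. The deposited values are a single list of the regions that both replicates shared, with 1 fold enrichment, 1 score and 1 false discovery rate per peak. Neither replicate has values of its own in it, and read totals are not part of it, so the spread between replicates and the depth behind a peak are unknown here.

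HILS1 is a linker histone made only in spermatids, where it appears while histones are being exchanged for transition proteins and protamines. LINE-1 elements are retrotransposons that copy themselves through an RNA, and successive subfamilies have left copies of different ages in mammalian genomes. In the naming of repeats, L1M stands for mammalian-wide copies, L1_Mur and L1_Rod for murine and rodent ones, and HAL1 for shortened elements that lack the reverse transcriptase reading frame. Lx is an old rodent family, and the rat names belong to copies of the rat lineage.

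The older peaks fell under 34 names and into 3 main groups. L1_Mur held 155 peaks (51.0%), L1M held 77 (25.3%) under 27 names, and L1VL, an abbreviation whose meaning the list does not give, held 68 (22.4%). A further 3 peaks were named L1_Rod and 1 HAL1b, and no peak had a primate L1P name. Most of the names were rare. The 7 names with at least 10 peaks held 244 of the peaks, led by L1_Mur2 with 71, L1_Mur3 with 63 and L1VL4a with 58, followed by L1_Mur1 with 21, L1M3 with 11 and L1VL4 and L1MDb with 10 each. The other 27 names shared 60 peaks, and 14 of them had a single peak. Together the older peaks covered 272 kb.

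HILS1 was enriched less over these elements than over the rat-named ones. The fold enrichment, which is the height of a called peak over a background set by the peak caller, had a median of 16.67 in older LINE-1 (range 7.41 to 89.81) and of 26.85 in rat-named LINE-1. On the log2 scale the medians were 4.06 in older LINE-1 (95% order-statistic interval 3.89 to 4.14) and 4.75 in rat-named LINE-1 (4.75 to 4.80), a difference of -0.69. The Lx family had a median log2 fold of 4.14 (4.06 to 4.21), an interval that overlapped that of the older peaks, and the peaks outside LINE-1 elements also had 4.14. The middle 50% of peaks spread from 12.04 to 23.15 in older LINE-1 and from 21.29 to 33.33 in rat-named LINE-1. These intervals cover the counting of peaks only, and peaks are not replicates, so no test was made of any difference.

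Most of the older peaks were modest in height. Between a fold of 10 and 20 lay 188 of them (61.8%), against 19.2% of rat-named and 52.7% of Lx peaks. Above a fold of 40 were 12 older peaks (3.95%), against 6.71% of rat-named and 4.32% of Lx peaks. At or above the median of the whole list, a fold of 25.0, were 64 older peaks (21.1%), against 62.1% of rat-named peaks. This share was 25.8% in Lx, 27.3% in peaks outside LINE-1 and 53.1% in all peaks. The score, which rises with the significance of the called peak, had a median of 284.5 in older LINE-1 and 804.1 in rat-named LINE-1. A false discovery rate of at most 10% was reached by 188 older peaks (61.8%, interval 56.3 to 67.1), against 90.7% of rat-named and 67.4% of Lx peaks. Among peaks outside LINE-1 it was 67.4%, and among all peaks 84.7%.

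**Figure D1:**
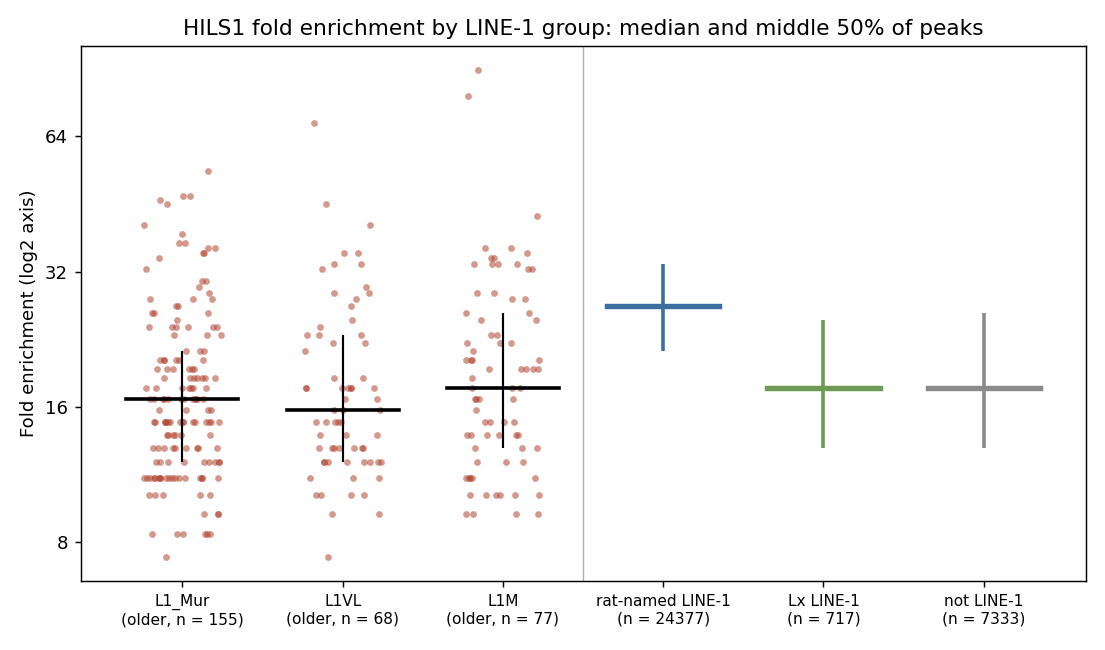
HILS1 fold enrichment on a log2 axis. Each point at the left is 1 older LINE-1 peak of the L1_Mur (155), L1VL (68) or L1M (77) group; horizontal lines are medians and vertical lines the middle 50% of peaks, also for rat-named LINE-1, Lx LINE-1 and peaks outside LINE-1. The older medians of 15.74 to 17.59 lay below the rat-named median of 26.85, and single older peaks reached 89.81.

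The 3 groups of older elements had medians close to each other. L1M had a median log2 fold of 4.14 (interval 3.89 to 4.35), L1_Mur of 4.06 (3.89 to 4.14) and L1VL of 3.98 (3.80 to 4.14), and all 3 intervals overlapped. Among the 7 names with at least 10 peaks the median fold ran from 13.885 in L1VL4 and 13.89 in L1M3 to 16.67 in L1_Mur1 and L1_Mur3. L1_Mur2 and L1VL4a both had a median of 15.74 and L1MDb had 16.2. The spread within a name was much wider than the differences between names, since L1_Mur2 alone ran from 7.41 to 47.22 and L1VL4a from 9.26 to 68.51.

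Within L1M, however, the letters of the name went with different heights. The 11 peaks in L1MC elements had a median fold of 33.33 (range 16.67 to 89.81) and the 12 in L1ME elements one of 26.85 (9.26 to 35.18). The other 54 L1M peaks had 14.81 (9.26 to 78.70), and 6 of them reached the list's median fold. On the log2 scale L1MC and L1ME together had 4.84 (interval 4.53 to 5.10), against 3.89 (3.80 to 4.28) for the other L1M names. Since segments of 1 called peak share a fold, the 23 peaks represent 20 called peaks. With each of these counted once the median was 4.75 (4.14 to 5.06), an interval that overlapped that of the other L1M names. L1MC and L1ME peaks were also longer, with a median of 969 bp against 609.5 bp for the other L1M names. This grouping by letter was made after the values were seen, and the counts are small.

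The 16 L1MC and L1ME peaks at or above the list's median fold lay at 12 places more than 6000 bp apart, 8 with a single peak and 4 with 2 each. Upstream of Nr2f1, a nuclear receptor gene, 2 L1MC1 peaks had folds of 25.92 and 42.59. At chr2:146909076-146913513, 3 L1MC2 peaks had folds of 17.59, 36.11 and 36.11. Their nearest gene was Hspa4l, of the HSP70 family of chaperones, with its start at least 315718 bp away. Nearest to Ccno, the gene of cyclin O, 2 segments of a called peak in L1MC5 shared a fold of 33.33. At chr7:62196069-62199853, with Cand1 as nearest gene, 2 L1MEd segments of a called peak shared a fold of 34.26. The 5 L1MEd peaks as a whole ran from 25.92 to 34.26. A rat-named LINE-1 peak lay within 6000 bp of 5 of the 23 L1MC and L1ME peaks (21.7%), against 18.5% of the other L1M peaks and 25.0% of all older peaks.

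The highest older peak was also the most isolated of the tall ones. It was named L1MC and lay at chr1:171269850-171270828 on rn5, 52901 bp from the start of Pold3, which encodes an accessory subunit of DNA polymerase delta. Its fold was 89.81, with 99.4% of all peaks lower. No other peak lay within 269710 bp of it. An L1MD peak at chr1:57185762-57188531 followed with 78.70, nearest to the vomeronasal receptor gene Vom2r9. Then came an L1VL4a peak at chr7:99866257-99866969 with 68.51, nearest to the cytochrome P450 gene Cyp2b1. An L1_Mur3 peak at chr7:1574915-1576383 had 53.70, nearest to Pros1, the gene of the anticoagulant protein S. Below these, 2 L1_Mur2 peaks on chromosome 19 had 47.22 each. For the peak at chr19:37424186-37426328 the nearest gene was Man2b1, a lysosomal mannosidase gene, 252797 bp away. For the peak at chr19:39597797-39598704 it was the vomeronasal receptor gene Vom1r21, 281041 bp away. The highest of the 3 L1_Rod peaks had 18.52, at chr19:422679-423124 and nearest to the carboxylesterase gene Ces2a. The HAL1b peak at chr1:39401738-39404772 had 16.67.

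At the other end, 2 older peaks had the lowest fold in the whole list, 7.41. They were an L1_Mur2 peak at chr17:55606524-55606972, nearest to Epc1, a gene of the enhancer of polycomb family, and an L1VL4 peak at chr3:179285477-179285916, nearest to Edn3, which encodes endothelin 3. Another 6 older peaks had 8.33, of which 5 were L1_Mur2 and 1 was L1_Mur3. The false discovery rates of these 8 peaks were between 20.1% and 23.5%.

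Older peaks were shorter than rat-named ones, and they were lower in each class of length. The median length was 698 bp (interval 654 to 744) in older LINE-1, 793 bp (787 to 801) in rat-named LINE-1 and 727 bp in Lx. Peaks up to 500 bp made up 16.8% of older and 5.12% of rat-named peaks. In this short class the median fold was 12.04 in older LINE-1 and 19.44 in rat-named LINE-1. From 500 to 1000 bp it was 15.74 in older and 25.0 in rat-named LINE-1, and above 1000 bp it was 20.37 in older and 31.48 in rat-named LINE-1. Across the 304 older peaks, log2 fold and log10 length had a Pearson correlation of 0.41, given as a description because overlapping segments and neighbouring peaks are not independent. The longest older peak, named L1_Mur2, spanned 3512 bp at chr2:175456397-175459909, nearest to Ssr3, with a fold of 21.29. The shortest, named L1MB3, was a segment of 103 bp at chr9:3707680-3707783 in an intron of Sult1c2a. These are lengths of peaks and not of elements, since the repeat name is that at the centre of the peak.

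**Figure D2:**
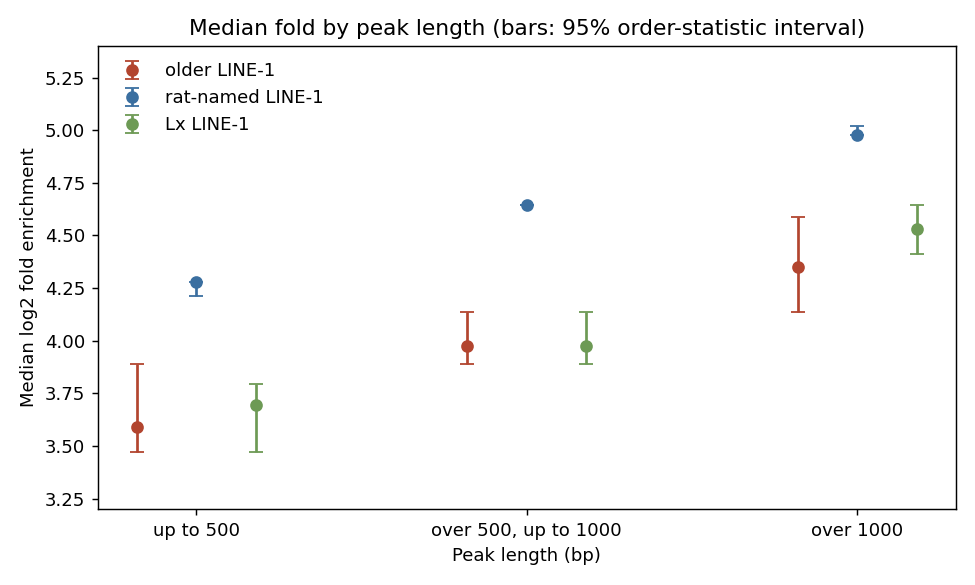
Median log2 fold enrichment of older, rat-named and Lx LINE-1 peaks in 3 classes of peak length in bp; bars are 95% order-statistic intervals. In every length class the older medians (12.04, 15.74 and 20.37 as folds) lay below the rat-named ones and had intervals that overlapped those of the Lx family.

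Older and rat-named elements also differed in where their peaks lay. When the genome was divided into windows of 1 Mb, 67 windows held at least 50 peaks and 2498 held between 1 and 49. These dense windows held 179 of the 304 older peaks (58.9%, interval 53.3 to 64.3), against 5.17% of rat-named peaks, 59.4% of Lx peaks and 60.9% of peaks outside LINE-1. Of all peaks they held 19.3%. Per window, older peaks numbered 2.67 in dense windows and 0.0500 elsewhere, a ratio of 53.4. The same ratio was 2.03 for rat-named peaks, 54.6 for the Lx family, 58.0 for peaks outside LINE-1 and 8.94 for all peaks. Dense windows were chosen by their count of peaks, which raises the ratio for the list as a whole. Older elements were 2.83% of the peaks in dense windows and 0.473% of those elsewhere. When the older peaks themselves were not counted, the same number of windows, 67, passed the limit of 50 and again held 179 older peaks. The limit was taken over from earlier results of these data. At a limit of 30 peaks the share of older peaks was 74.3% and at 100 peaks it was 29.3%, against 26.9% and 8.84% of all peaks.

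The names differed in this placement. All 11 L1M3 peaks and all 7 L1MB3 peaks lay in dense windows, as did 71.4% of L1_Mur3 peaks (interval 59.3 to 81.1) and 70.4% of L1_Mur2 peaks (59.0 to 79.8). Of L1VL4a peaks it was 55.2% and of L1MDb peaks 5 of 10. L1_Mur1 had 7 of 21 there (33.3%, 17.2 to 54.6), and L1VL4 had 1 of 10 (1.79 to 40.4). The 5 L1MEd peaks were all outside dense windows, as were 19 of the 23 L1MC and L1ME peaks.

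**Figure D3:**
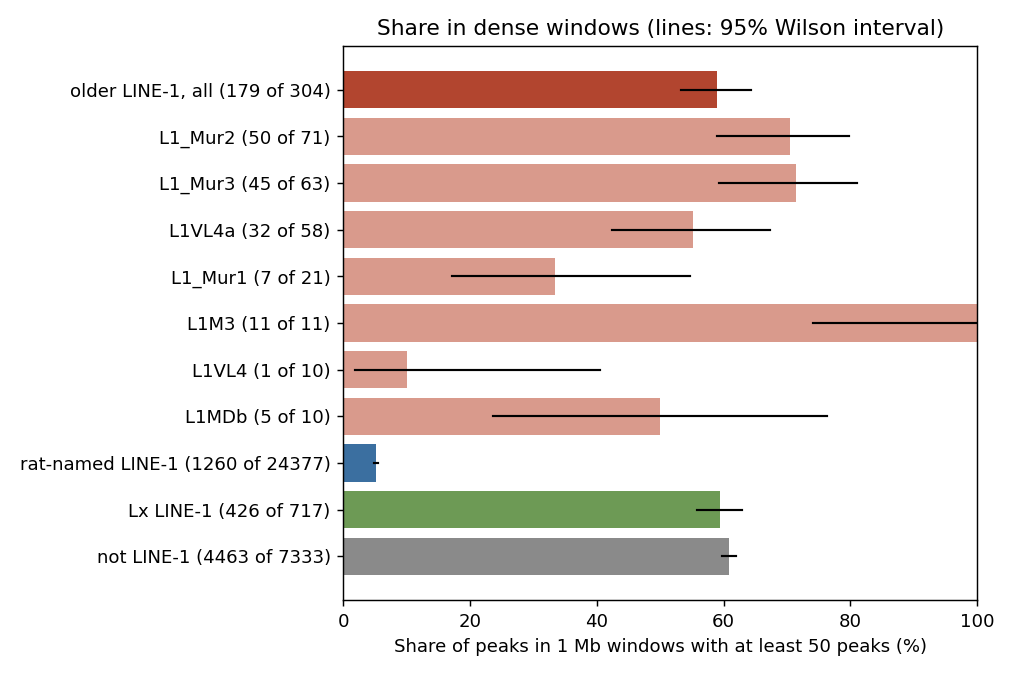
Share of peaks in 1 Mb windows with at least 50 peaks, in percent, for all older LINE-1 peaks, for the 7 older names with at least 10 peaks, and for the other classes; lines are 95% Wilson intervals. The older share of 58.9% was close to those of Lx (59.4%) and of peaks outside LINE-1 (60.9%), against 5.17% for rat-named LINE-1. For all peaks, not drawn, it was 19.3%.

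Inside and outside the dense windows, older peaks had similar medians. More of them were tall outside, with the widest gap in L1M and the reverse in L1VL. The median fold was 15.74 in dense windows and 16.67 elsewhere, while rat-named peaks had 21.29 in dense windows and 27.78 elsewhere. The upper quartile of the older peaks was 20.37 in dense windows and 27.78 elsewhere. The list's median fold was reached by 27 of 179 older peaks in dense windows (15.1%) and by 37 of 125 elsewhere (29.6%). Over all peaks these shares were 28.0% and 59.2%. L1_Mur had medians of 16.67 in dense windows and 15.74 elsewhere, and L1VL had 15.74 in both. The exception was L1M, with 15.275 over 40 peaks in dense windows (log2 interval 3.80 to 4.21) and 25.92 over 37 peaks elsewhere (4.14 to 5.02). Outside the dense windows, the 19 L1MC and L1ME peaks had a median fold of 32.41 and the 18 other L1M peaks 15.74. In the dense windows the 4 L1MC and L1ME peaks had 16.67 and the 36 other L1M peaks 14.81. The contrast by letter thus rests on the other windows. With each called peak counted once, the L1M median elsewhere was 22.22 over 33 peaks, and its log2 interval of 3.89 to 4.84 overlapped that of the dense windows. Of the L1M peaks, 2 of 40 in dense windows reached the list's median fold, against 20 of 37 elsewhere. Of these 20, 16 were L1MC or L1ME peaks, some of them segments that share a fold. In L1_Mur this share was 15.7% in dense windows and 22.6% elsewhere, whereas in L1VL it was 27.3% in dense windows and 14.3% elsewhere.

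Older and rat-named peaks were also compared within the same window. In 131 windows that held both kinds, the older median was lower in 88, equal in 1 and higher in 42, and the median of the differences was -0.31 on the log2 scale. Over these windows the medians of the window values were 4.06 for older and 4.59 for rat-named peaks. In the 52 dense windows with an older peak it was lower in 40, with a median difference of -0.33, and in the 79 other windows it was lower in 48, with -0.27. By chromosome, the older median was below the rat-named median on all 19 chromosomes with at least 3 older peaks, by differences that ran from -1.10 on chromosome 17 to -0.21 on chromosome 19.

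Chromosome 2 carried the most older peaks, 52, ahead of chromosome 1 with 43, chromosome 7 with 33, chromosome 9 with 25 and chromosome 15 with 22. As a share of the chromosome's own peaks they were most frequent on chromosome 19 (17 peaks, 1.68%), chromosome 7 (1.64%) and chromosome 15 (1.56%). Chromosomes 10 and 20 had 2 each. All 17 older peaks of chromosome 19 and all 4 of chromosome 13 lay in dense windows, and none of those on chromosomes 5, 10, 17, 18 and 20 did. The X chromosome had 10 older peaks, 3.29% of them (interval 1.80 to 5.95), against 7.92% of rat-named and 6.97% of all peaks. It had 6.28% of Lx peaks (4.72 to 8.29), an interval that overlapped the older one, and 4.04% of peaks outside LINE-1.

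**Figure D4:**
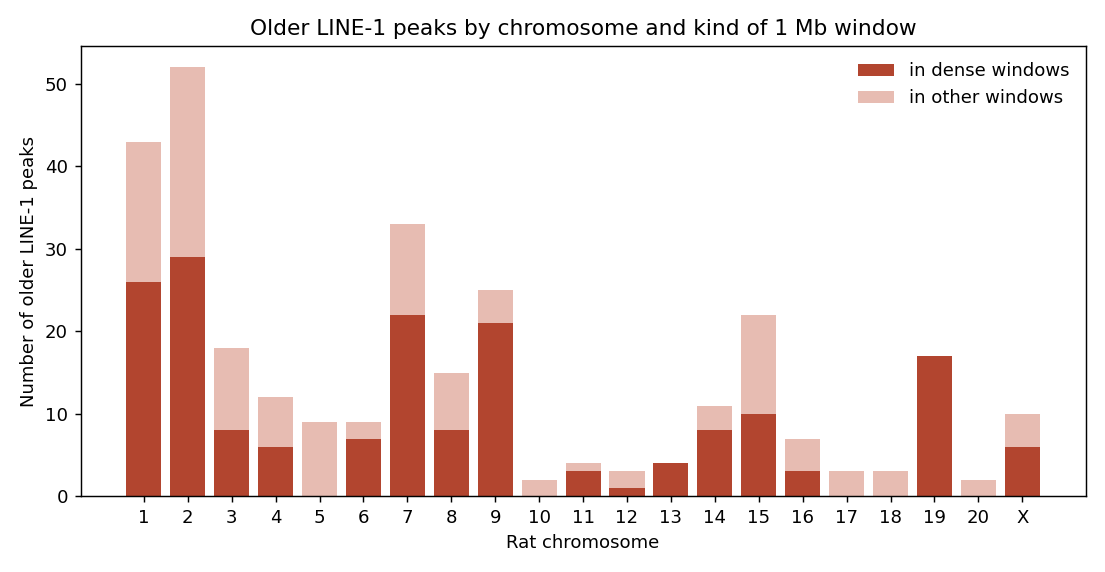
Number of older LINE-1 peaks on each rat chromosome, divided into those in dense windows (dark) and in other windows (light). Chromosome 2 had the most (52, of which 29 in dense windows), and the 17 peaks of chromosome 19 were all in dense windows.

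A few windows held many of these peaks. Older peaks occurred in 134 windows, 65 of which had just 1, and 15 windows with at least 5 held 99 of the 304. The richest was the window from 3 to 4 Mb of chromosome 9, with 11 older peaks among 217 and folds of 10.18 to 25.0, around the sulfotransferase gene Sult1c2a. From 0 to 1 Mb of chromosome 2 there were 9 among 246, all nearest to Erap1, which encodes an aminopeptidase that trims antigenic peptides, with folds of 9.26 to 20.37. The older median was 13.89 against 14.81 for all peaks of the window on chromosome 9, and 15.74 against 16.67 on chromosome 2.

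The window from 39 to 40 Mb of chromosome 19 was different in height. Its 8 older peaks, all nearest to Vom1r21, had folds of 9.26, 11.11, 17.59, 25.92, 27.78, 38.89, 45.37 and 47.22, with a median of 26.85 against 19.44 for all 151 peaks of the window. The values fell on both sides of the window's median. The window from 9 to 10 Mb of chromosome 15 held 8 among 141, of which 7 were L1_Mur3, around the Spetex-2 genes, a family expressed in spermatids of the rat. There the highest fold was 35.18, in an intergenic L1_Mur3 peak, and the other 7 lay between 11.11 and 20.37. Between 40 and 41 Mb on chromosome 8, all 5 older peaks were named L1_Mur3 and lay nearest to the olfactory receptor gene Olr1217. Between 39 and 40 Mb on chromosome 6, 4 of the 5 were L1M3.

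The surroundings of a single peak also set older and rat-named elements apart. For rat-named peaks the nearest other peak was nearly always another rat-named peak (94.6%). Rat-named peaks were, however, 74.5% of the list and 87.6% of the peaks outside dense windows. Called peaks of several segments also gave 47.3% of rat-named and 26.3% of older peaks, and there the nearest peak can be a segment of the same call. For older peaks the nearest one was in no repeat in 88 cases (28.9%, interval 24.1 to 34.3), in another older LINE-1 in 72 (23.7%), in a rat-named LINE-1 in 49 (16.1%), in an LTR element in 45 (14.8%) and in an Lx element in 16 (5.26%). Lx peaks had similar shares of neighbours in no repeat (30.8%) and in rat-named elements (16.6%). The nearest peak was at a median distance of 704 bp from an older peak and of 627 bp from a rat-named one.

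**Figure D5:**
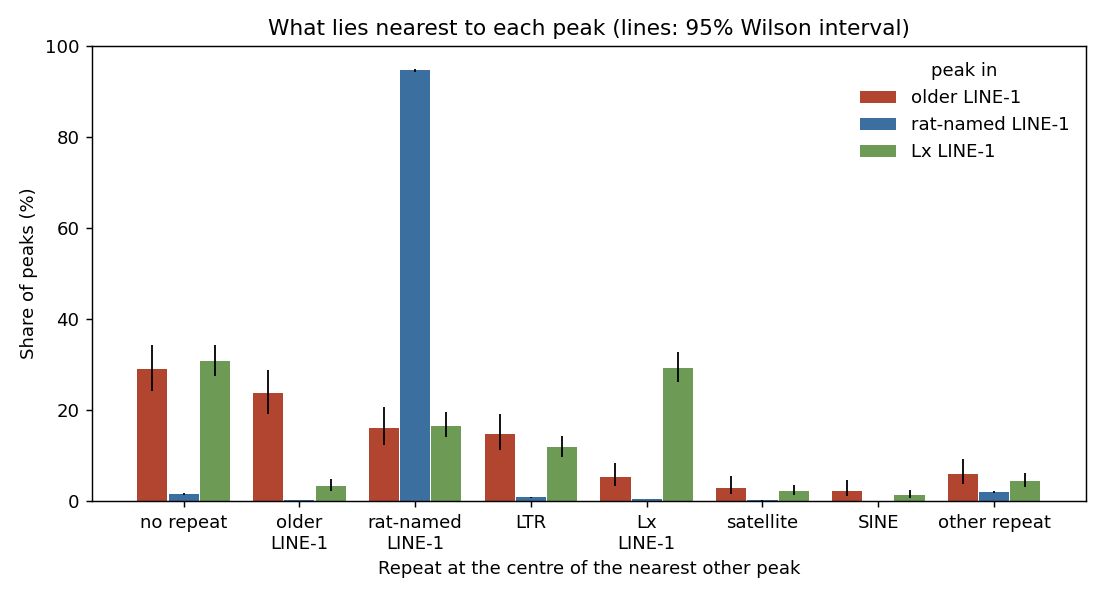
Repeat class at the centre of the nearest other peak, as a share of older, rat-named and Lx LINE-1 peaks in percent; lines are 95% Wilson intervals. Rat-named peaks, 74.5% of the list, had a rat-named neighbour in 94.6%. The neighbours of older peaks were spread over peaks in no repeat (28.9%), older LINE-1 (23.7%), rat-named LINE-1 (16.1%) and LTR elements (14.8%).

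Within 6000 bp, the distance used here for a neighbour, 259 older peaks (85.2%) had another peak of any kind. This held for 71.1% of rat-named peaks, 81.7% of Lx peaks and 82.6% of peaks outside LINE-1. A rat-named peak was within 6000 bp of 76 older peaks (25.0%, interval 20.5 to 30.2), against 69.2% of rat-named, 20.1% of Lx and 57.3% of all peaks. Among the groups it was 28 of 68 in L1VL (41.2%), 32 of 155 in L1_Mur (20.6%) and 15 of 77 in L1M (19.5%). The median fold of older peaks was 16.67 both with and without a rat-named peak within 6000 bp. It was 14.81 in the 18 older peaks that had no other peak within 20 kb (log2 interval 3.47 to 4.84). Of these 18, however, 8 (44.4%) reached the list's median fold, against 21.1% of all older peaks.

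The list divides some called peaks into several segments. The 304 older peaks came from 287 called peaks, of which 224 had a single segment and 63 had several. Just 9 older peaks shared a called peak with a rat-named segment and 6 with an Lx segment, and 17 called peaks held 2 older segments each, always under the same name. Of the 73 other segments of these called peaks, 30 were in no repeat and 12 in rat-named LINE-1. Older peaks in single-segment calls had a median fold of 14.81, and those in calls of several segments 18.98.

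Some peaks of the same older name followed each other. Within 6000 bp of each other, 97 older peaks formed 46 runs of a single name, which spanned 1174 to 9785 bp with a median of 2658 bp. Of these runs, 14 were segments of a single called peak and 32 came from several called peaks. Runs of at least 3 numbered 4. The run with the most was of 4 L1_Mur3 peaks at chr5:81810615-81814661 with folds of 8.33, 13.89, 14.81 and 14.81. Another was of 3 L1_Mur3 peaks at chr16:450851-455928 with folds of 11.11 to 26.85. Their nearest gene was the ribosomal protein gene Rps24, at least 297457 bp away. The others were 3 L1_Mur1 peaks at chr1:154127478-154130836 with 11.11 each, and the L1MC2 peaks with Hspa4l as nearest gene. The L1_Mur1 pairs on chromosomes 3 and 7 were taller, with folds of 37.03 and 36.11, each pair being a single called peak. The nearest gene was Ppp6c for the first pair, at least 1265776 bp away, and Zfat for the second, at least 13709 bp away.

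Most older peaks lay between genes. Of the 304, 279 were intergenic and 25 intronic (8.22%, interval 5.63 to 11.9), against 16.1% of rat-named and 7.39% of Lx peaks, and none had any other annotation (an exon, a UTR, a promoter, a transcription end or a non-coding transcript). Such annotations were rare over the whole list too (65 peaks, 0.199%). The median distance to the nearest transcription start was 300746 bp in older and 172651 bp in rat-named LINE-1. It was 418598 bp in Lx and 290846 bp in peaks outside LINE-1. Within the dense windows the intronic share was 6.15% in older and 6.43% in rat-named LINE-1, and in the other windows it was 11.2% in older (interval 6.79 to 17.9) and 16.6% in rat-named LINE-1.

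The 25 intronic peaks were in 11 genes, and 19 of these peaks belonged to the L1_Mur group. Cyp2c7, a cytochrome P450 gene, held 5 of low height, with folds of 8.33 and 4 times 11.11, among 29 intronic peaks of that gene. LOC298111, an alpha-2u globulin gene, also held 5, with folds of 8.33, 11.11, 13.89, 14.81 and 14.81, all in intron 5 of 5 and 4 of them being the L1_Mur3 run described above. Sult1c2a held 4 (13.89, 14.81, 23.15 and 23.15) among 71 intronic peaks, and these had 4 different names. The Spetex family genes Spetex-2E and Spetex2h held 2 L1_Mur3 peaks each, with folds of 13.89 and 20.37 in Spetex-2E and of 12.96 and 11.11 in Spetex2h. Cd99l2, a gene for a membrane protein of the CD99 family, held 2 with 11.11 and 12.04. The tallest intronic peaks, at 32.41, were single ones in Smok2a, a sperm motility kinase gene, and in the vomeronasal receptor gene Vom2r37.

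Close to a transcription start there was little. Only 8 older peaks lay within 10 kb of one (2.63%, against 4.14% of rat-named, 2.37% of Lx and 3.05% of peaks outside LINE-1). The closest was an L1VL4a peak 1664 bp upstream of Smok2a with a fold of 28.70. An L1VL4 peak lay 3225 bp upstream of Eqtn, the gene of the acrosomal protein equatorin, with a fold of 29.63. Other peaks were 4309 bp upstream of Sult1c2 and 4865 bp upstream of Fam111a, and the remaining 4 were inside Sult1c2a and Spetex genes.

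By nearest gene, the older peaks were shared among 132 genes, 59 of which had just 1. Erap1 had 13, the vomeronasal receptor gene Vom2r57 had 12 and Vom1r21 had 9, while LOC301165, Rras2, a gene of the RAS family, and the syntaxin gene Stx19 had 7 each. All of these peaks lay in dense windows. Older elements were a small part of the peaks nearest to these genes, such as 13 of 357 (3.64%) for Erap1 and 12 of 411 (2.92%) for Vom2r57.

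Gene families were counted in the same way, by the nearest gene. Vomeronasal receptors were nearest to 24 older peaks (7.89%, interval 5.36 to 11.5), against 3.89% of all peaks. Of these 24, 22 lay in dense windows, and in the other windows the shares were 1.60% of older and 1.73% of all peaks. Olfactory receptors were nearest to 11 older peaks (3.62%, against 3.88% of all), zinc finger genes to 7 (2.30%, against 1.08%) and cytochrome P450 genes to 6 (1.97%, against 0.629%). Of these last 6, 5 lay at a single Cyp2c locus on chromosome 1, 3 of them in the L1_Mur1 run given above. Spermatid chromatin genes were nearest to 1 older peak, the Epc1 one given above (0.329%, interval 0.0581 to 1.84, against 0.0855% of all peaks). Cadherins (2.34% of all peaks), neurotransmitter receptors (1.27%) and sperm tail genes (0.211%) had 0 of 304, which allows a share of up to 0.987% by the limit of 3 counts and of 1.25% by the Wilson interval. Outside the dense windows it was 0 of 125, with a Wilson upper limit of 2.98%, against 2.85% of all peaks there for cadherins and 1.58% for neurotransmitter receptors, so a lower share in older LINE-1 was not detectable there.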

How the data were processed

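HILS1 chromatin immunoprecipitation was sequenced in 2 replicates with 1 input library. According to the study's methods, the authors used Bowtie2 to place trimmed reads at unique positions of rn5, dropped duplicates, ran MACS on each replicate with the input as control, retained what overlapped and added HOMER annotation. Further tools stand without versions in the submitters' processing notes. How far unique alignment thins reads in repeats was not tested. The deposited fold enrichment is a ratio that the authors took from MACS, and every fold was a whole multiple of 0.92587 (within 0.00572 of a step). The deposited score grows with the negative logarithm of the p-value, and 8.76% of all peaks and 7 of the older LINE-1 peaks shared the commonest score of 3100. The false discovery rate was deposited in percent. The paper does not state which replicate gave these values. Coordinates are those of the list, and its length was end minus start in 32730 peaks and differed by 1 base in the other.

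The 304 older LINE-1 peaks were selected by repeat name and compared with rat-named, Lx and all peaks. Shares have 95% Wilson intervals, medians have order-statistic intervals, and 0 tests were made, because the list holds 1 value per peak and peaks are not replicates. Intervals cover counting error only and were tried on 1000 simulated lists of independent values. That trial cannot show their coverage for peaks that share a fold or lie close together. The text names subfamilies with at least 10 peaks, the 5 highest and 3 lowest peaks (ties included), the highest of each group, the longest and shortest, genes with at least 2 intronic peaks, the 5 commonest nearest genes (ties included), the chromosomes and windows with the most, and runs of a single name. Other named peaks, the L1MC and L1ME grouping, the smaller subfamilies and further windows and genes were chosen after their values were seen. The members, lists and the limits of 1 Mb, 50 peaks and 6000 bp were chosen with earlier results of these data known. Alternatives kept the longest segment, peaks from a score of 100, from a fold of 16, up to 10% false discovery rate or from 500 bp in length, counted close peaks once, weighted by length, or left out dense windows or peaks near rat-named LINE-1. The dense-window share and its alternatives were added after the data were seen. Reads, ChIP-qPCR values and rn5 sequence were not analysed here. The software was pandas 2.3.3, numpy 2.4.6, scipy 1.17.1 and matplotlib 3.10.9 under Python 3.11.15.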

Additional observations from a re-analysis of the deposited data

How the results depend on the processing

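The list gives 1 value per peak, so these results carry no replicate error and the depth behind them is unknown. No paired analysis was possible because the list holds no values per replicate, and for the same reason no replicate could be left out. Of 114 alternative values, 77 were counted as the same, 37 as moved and 0 as reversed. Shares, lengths and median log2 folds of these peaks could not be negative, so a reversal was possible for the differences alone. The difference in median log2 fold from Lx ran from -0.15 to 0. The older median stayed below the rat-named one in each of the 10 alternatives. With the longest segment of each called peak, older LINE-1 made up 1.06% of peaks and 47.9% of them had another LINE-1 peak within 6000 bp. At a score of at least 100 the share was 0.826% and the median length 769.5 bp. At a fold of at least 16 the share was 0.588%, the median log2 fold 4.53, its difference from rat-named LINE-1 -0.31, the median length 851 bp, the intronic share 3.82% and the share with a LINE-1 neighbour 45.9%. This setting and the next remove low peaks by construction. With the false discovery rate limited to 10% the share was 0.678%, the median log2 fold 4.35, the difference -0.45 and the length 913 bp. At a length of at least 500 bp the share was 0.830% and the length 789 bp. With peaks under 6000 bp apart counted once, the share was 0.606%, the difference -0.56, the length 922.5 bp, the intronic share 5.21% and the share in dense windows 43.75%. Without dense windows the share was 0.473%. Without peaks near a rat-named LINE-1 peak the share was 1.63%, the difference -0.47 and the share with a LINE-1 neighbour 43.4%. Weighted by length, the share was 0.825%. The share with a LINE-1 neighbour was 33.6% within 1000 bp and 77.6% within 20000 bp. The share in dense windows was 74.3% at a limit of 30 peaks and 29.3% at 100 peaks. The causes of these shifts were not tested. The share with a neighbour when close peaks are counted once, and the dense share without dense windows, are fixed by construction and were not run.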

Other observations

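Interspersed repeats of other families, which belong to no comparison of LINE-1 names, also carried HILS1 peaks. The list gives no age for their copies. The ERVL-MaLR family of long terminal repeats had 250 peaks with a median fold of 16.67 (range 7.41 to 78.70), and 64.8% of them lay in dense windows (95% Wilson interval 58.7 to 70.5). The hAT-Charlie DNA transposons had 34 peaks with a median fold of 16.2 (8.33 to 31.48) and 64.7% in dense windows. Both families had medians and dense shares close to those of older LINE-1 (16.67 and 58.9%). The whole set of peaks outside LINE-1, which includes both families, had 17.59 and 60.9%, so this closeness was not particular to them. Fewer peaks fell in MIR elements, an old group of SINEs (11 peaks, median 19.44), in TcMar-Tigger DNA transposons (6 peaks, median 12.50) and in L2, another family of LINEs (4 peaks, 9.26 to 22.22, all in dense windows). A single RTE-X peak, outside the dense windows, had a fold of 64.81.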
